A study of Mus musculus with 13 samples.

Results

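The 32 genes described here mark the cells that make myelin and the astrocytes, measured in RNA from samples labelled as mouse microglia. They were picked by symbol as cell type genes, 15 of oligodendrocytes and 17 of astrocytes, with earlier results of these data known. All 32 are among the 19737 genes of the deposited table, and 30 of them (14 oligodendrocyte and 16 astrocyte genes) averaged 1 FPKM or more across all 13 libraries. These were tested among 10817 genes in all, and the other 2, Pdgfra and Aldoart1, are given by their values. FPKM divides the fragments of a gene by its length and by the library's depth, so levels can be compared between genes.

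The series profiled microglia, the macrophages that live in brain tissue, from wild type mice and from 5xFAD mice, a transgenic model of amyloid deposition in Alzheimer's disease. Total RNA was sequenced with a stranded kit after removal of ribosomal RNA. Wild type EGFP (3 libraries) and 5xFAD EGFP (2 libraries) had received AAV PHP.eB-EGFP, an adeno-associated virus carrying a fluorescent protein. The 5xFAD circRNA group (4 libraries) had received the same capsid carrying circPOLR2A, a circular RNA, and the 5xFAD PKR KO group (4 libraries) carried a knockout of PKR, the kinase that senses double-stranded RNA. The treatment labels name circPOLR2A(9,10), (9,11), (9,12) and (9,13) for circRNA replicates 1, 2, 3 and 4, while the series text gives (9,10) for the group, so a shared construct is not certain. For PKR KO the labels name no virus, and they give library names that no other group has, so a difference in library preparation and the knockout cannot be told apart. Age, sex and the cells in which PKR was removed are not given, nor whether each library is a separate animal, so p-values measure the spread between these libraries only.

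Oligodendrocytes wrap axons in myelin, a stack of membrane held together by proteins such as myelin basic protein and rich in galactolipids. Astrocytes take up glutamate and potassium, contact blood vessels with their endfeet, and raise the intermediate filament protein GFAP when they become reactive, as around amyloid plaques. Serpina3n is another marker of reactive astrocytes, and oligodendrocytes in amyloid models are known to express it too. Neither cell class is named in the sample labels.

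Markers of microglia were abundant in every library, beside markers of several other cell types. The 14 microglial markers summed to between 3436 and 6614 FPKM and none was listed at 0. The 15 oligodendrocyte genes summed to 228 to 1548 FPKM and the 17 astrocyte genes to 328 to 793 FPKM. The 3 markers of ependyma and choroid plexus, nearly all of it Ttr, summed to 1044 to 2656 FPKM in wild type, 564 to 773 in 5xFAD EGFP, 352 to 2221 with circRNA and 202 to 817 in PKR KO. The depth recovered from the values was 45.2 to 70.1 M fragments for each library, and each tested member had at least 23 fragments in each library, the fewest being for Serpina3n in wild type replicate 2. Eif2ak2, which encodes PKR, was at 3.31 to 4.61 FPKM in PKR KO, 6.49 and 6.59 in 5xFAD EGFP, 7.37 to 8.11 with circRNA and 4.14 to 5.23 in wild type. The knockout libraries lay below the other 5xFAD libraries and overlapped wild type. The deleted part of the gene is not given, so the level checks the label only in part. In bulk RNA, fewer cells of a type and less RNA per cell cannot be told apart. Wild type replicate 3 stood apart, with the lowest microglial sum of all libraries. It was the highest wild type library in 14 of 14 tested oligodendrocyte genes and in 16 of 16 tested astrocyte genes, against 27.9% of all tested genes. The members' median changes against wild type are also given without it.

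Of the 15 oligodendrocyte genes, 11 matched a RefSeq promoter entry (GRCm38.p6), as did 13 of the 17 astrocyte genes. SOX10, the lineage factor that switches on myelin genes, binds the core letters ACAAAG or ACAATG. Within the 250 bases before a start site, on either strand, at least 1 of these 2 hexamers was found in 6 of the 11 oligodendrocyte genes and in 0 of the 13 astrocyte genes, against 28.2% of 27025 genes. A gene with several start sites counted once if any window held a match. A match is a description of the letters, not of binding by SOX10 or by any other factor. No match was found for Mog, Cldn11, Ugt8a, Pdgfra and Cspg4. The windows of 3 myelin genes that hold a match are shown for the spacing of these letters, and a link with the levels below was not tested. They are printed 5′ to 3′ on the strand of the gene, with matches in capitals (read as CTTTGT or CATTGT where they lie on the other strand), for Mobp (chr9:120149492-120149741, plus strand), Opalin (chr19:41077114-41077363, minus strand) and Mag (chr7:30914923-30915172, minus strand, 1 of its annotated start sites).
Mobp: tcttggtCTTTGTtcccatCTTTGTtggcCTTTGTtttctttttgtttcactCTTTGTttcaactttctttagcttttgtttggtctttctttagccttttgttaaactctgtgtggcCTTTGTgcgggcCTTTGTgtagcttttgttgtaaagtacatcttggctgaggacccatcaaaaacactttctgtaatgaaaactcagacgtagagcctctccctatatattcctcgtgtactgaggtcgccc
Opalin: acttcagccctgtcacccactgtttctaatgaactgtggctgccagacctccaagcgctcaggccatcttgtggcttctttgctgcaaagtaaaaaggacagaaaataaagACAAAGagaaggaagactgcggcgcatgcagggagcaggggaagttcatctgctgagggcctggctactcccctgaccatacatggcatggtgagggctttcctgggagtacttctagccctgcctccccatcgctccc
Mag: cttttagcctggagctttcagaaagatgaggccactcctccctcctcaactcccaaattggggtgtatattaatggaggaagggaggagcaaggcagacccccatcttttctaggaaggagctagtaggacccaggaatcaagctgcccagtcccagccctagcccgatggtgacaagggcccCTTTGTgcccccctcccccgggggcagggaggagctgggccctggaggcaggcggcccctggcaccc
The Mobp window held 6 matches, the farthest 243 bases before the start, and the Opalin and Mag windows held 1 match each, 139 and 67 bases before it. The letters TTCNNNGAA, the palindrome bound by STAT factors such as the STAT3 of reactive astrocytes, were found in 1 of 11 oligodendrocyte genes and 2 of 13 astrocyte genes, against 8.1% of genes. They were not in the windows of Gfap, Vim or Serpina3n.

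The compact myelin genes Mbp, which encodes the protein that binds the inner faces of the myelin membrane, and Mobp, which encodes a protein of the dense line between them, were the most abundant of the oligodendrocyte genes. Mbp was at 219.8, 195 and 926 FPKM in wild type replicates 1, 2 and 3, 319 and 346 FPKM in 5xFAD EGFP replicates 1 and 2, 382, 174, 144 and 419.7 FPKM in circRNA replicates 1 to 4 and 142, 126, 124 and 199 FPKM in PKR KO replicates 1 to 4. Wild type replicate 3 was the highest of all, circRNA replicates 1 and 4 were higher than replicates 2 and 3, and the PKR KO libraries lay below both 5xFAD EGFP libraries but overlapped wild type replicate 2. Mobp ranged over 86.5 to 446 FPKM in wild type, 149.5 to 156 in 5xFAD EGFP, 78.2 to 211 with circRNA and 58.4 to 112 in PKR KO.

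The genes of the myelin membrane and sheath were ordered by library in another way than Mbp and Mobp. Mog, which encodes the glycoprotein on the outer face of the sheath, was at 4.03, 4.15 and 13.4 FPKM in wild type, 12.7 and 12.5 FPKM in 5xFAD EGFP, 13.46, 2.81, 7.38 and 11.0 FPKM with circRNA and 3.12, 2.36, 3.76 and 3.08 FPKM in PKR KO. All 4 PKR KO libraries lay below both 5xFAD EGFP libraries and below every wild type library, while the circRNA libraries were spread over nearly the whole range. Mag, the adhesion molecule at the axon face, was at 7.48, 8.83 and 20.8 FPKM in wild type, 19.99 and 22.7 in 5xFAD EGFP, 21.5, 5.98, 11.6 and 19.4 with circRNA and 7.33, 5.33, 7.41 and 7.54 in PKR KO. Cnp, the phosphodiesterase that keeps cytoplasmic channels open in myelin, was at 17.6, 19.7 and 46.2 FPKM in wild type, 38.4 and 39.1 in 5xFAD EGFP, 42.8, 16.5, 26.4 and 38.0 with circRNA and 16.4, 12.3, 15.9 and 16.8 in PKR KO. Cldn11, which seals the layers of the sheath, ranged over 9.16 to 29.6 FPKM in wild type, 30.2 to 33.1 in 5xFAD EGFP, 7.27 to 33.7 with circRNA and 5.36 to 11.3 in PKR KO. The cytoskeletal gene Ermn ranged over 2.96 to 13.1 FPKM in wild type, 8.98 to 10.4 in 5xFAD EGFP, 2.87 to 11.7 with circRNA and 1.86 to 4.17 in PKR KO. Opalin, a membrane protein of mature oligodendrocytes, ranged over 0.816 to 3.53 FPKM in wild type, 3.90 to 4.79 in 5xFAD EGFP, 0.738 to 4.72 with circRNA and 0.538 to 1.07 in PKR KO. In all 6 of these genes circRNA replicate 1 was the highest of its group, replicate 4 the next and replicate 2 the lowest.

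Next come the enzymes that make myelin lipids and the transcription factors of the lineage. Ugt8a, the galactosyltransferase of cerebroside synthesis, was at 2.27 to 8.66 FPKM in wild type, 5.70 to 7.01 in 5xFAD EGFP, 1.87 to 7.15 with circRNA and 1.26 to 2.53 in PKR KO. Fa2h, which hydroxylates the fatty acids of these lipids, was at 1.90 to 5.74 FPKM in wild type, 5.73 to 6.54 in 5xFAD EGFP, 1.40 to 5.86 with circRNA and 0.945 to 2.28 in PKR KO. Sox10 was at 2.33, 2.89 and 8.81 FPKM in wild type, 8.23 and 8.98 in 5xFAD EGFP, 8.68, 1.71, 3.85 and 7.18 with circRNA and 2.68, 1.40, 2.94 and 2.47 in PKR KO. It had the same high libraries as Mog, and PKR KO lay below both 5xFAD EGFP libraries. Olig1 ranged over 6.01 to 19.0 FPKM in wild type, 14.9 to 17.2 in 5xFAD EGFP, 5.08 to 18.6 with circRNA and 3.40 to 8.22 in PKR KO. Olig2 ranged over 1.11 to 3.36 FPKM in wild type, 2.56 to 2.87 in 5xFAD EGFP, 1.08 to 3.25 with circRNA and 0.604 to 1.41 in PKR KO. Both encode bHLH factors needed to specify the lineage.

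The progenitor genes had other high and low libraries. Pdgfra, which marks oligodendrocyte progenitors, was at 0.485 to 0.856 FPKM in wild type, 0.196 to 0.354 in 5xFAD EGFP, 0.194 to 0.447 with circRNA and 0.206 to 0.369 in PKR KO. It was below 1 FPKM in every library and was not tested. Cspg4, which encodes the NG2 proteoglycan of progenitors and of pericytes, was at 2.27, 1.27 and 3.43 FPKM in wild type, 4.49 and 3.60 in 5xFAD EGFP, 3.12, 5.26, 5.40 and 2.98 with circRNA and 3.85, 4.66, 4.19 and 3.42 in PKR KO. Its lowest value was in wild type replicate 2, and the circRNA libraries that were low in Mog, replicates 2 and 3, were its highest. Mural cell markers, a list that covers pericytes, summed to 49.2 to 108 FPKM in wild type, 17.9 to 31.3 in 5xFAD EGFP, 24.5 to 45.0 with circRNA and 22.3 to 40.6 in PKR KO.

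**Figure D1:**
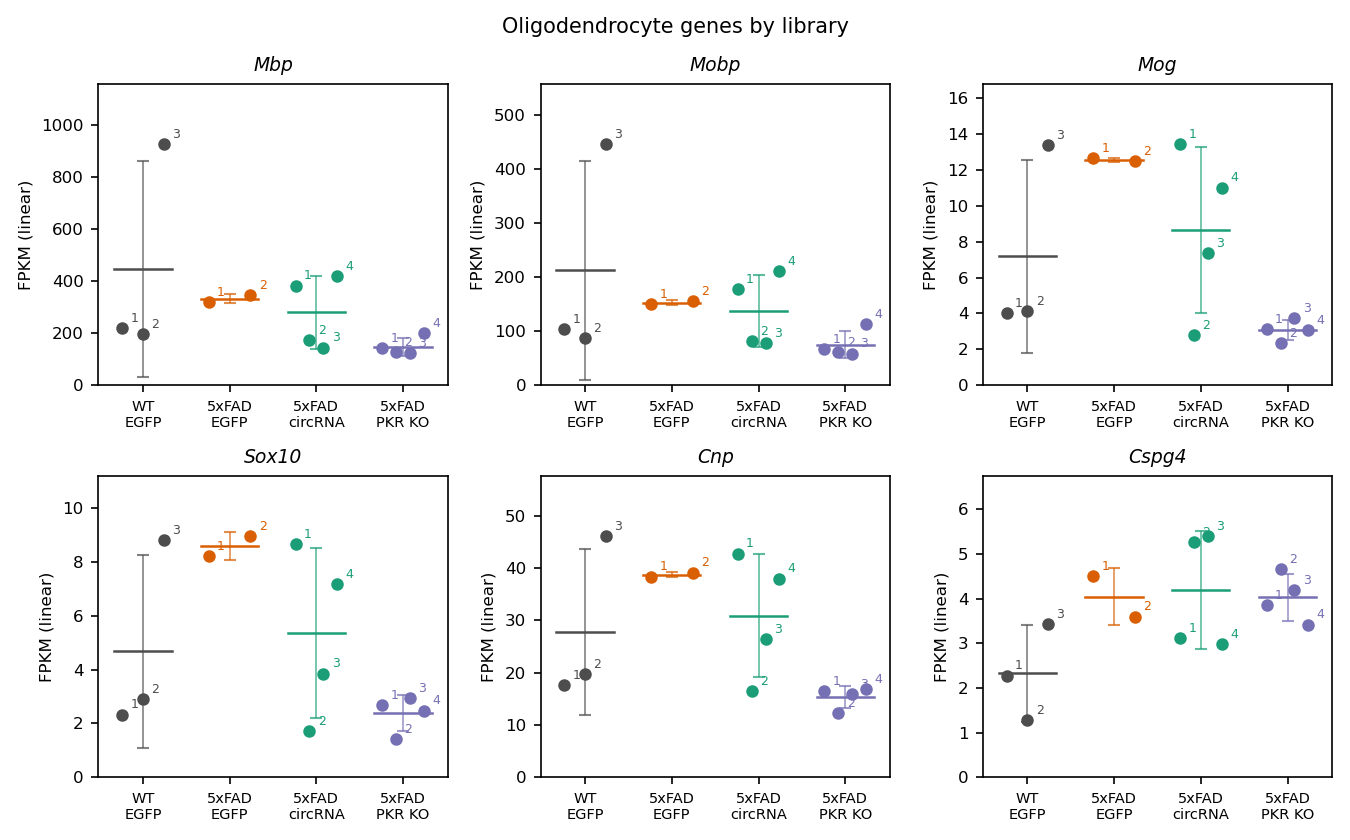
FPKM (linear axis, from 0) of 6 oligodendrocyte genes in each library; points are libraries with their replicate number, the horizontal line is the group mean and the bar its SD (n = 3, 2, 4 and 4). Wild type replicate 3 is the highest wild type library in all 6 panels, and Mog and Sox10 in the PKR KO group are all below both 5xFAD EGFP libraries.

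In 5xFAD EGFP against wild type EGFP, 0 of 14 oligodendrocyte genes passed the threshold of 0.05 on limma's adjusted p, while 7.65% of all tested genes were higher and 6.35% lower by that rule. At an unadjusted p under 0.05, 2 of 14 (Opalin and Cspg4, both higher) were found, against 26.2% of all genes. That number was 12, all higher, without wild type replicate 3, against 33.4% of all genes. It was 0 without wild type replicate 1 or 2, against 24.1% and 25.7% of all genes. The changes were positive in 12 of 14 genes, with a median log2 change of 0.73 (1.22 with wild type replicate 3 left out), against -0.03 over all genes. The log2 change of Mog was 0.92 (SE 0.51, limma adjusted p = 0.288), with a 95% interval of -0.20 to 2.03. That of Sox10 was 0.93 (SE 0.51, limma adjusted p = 0.278), with -0.18 to 2.04. Cnp was at 0.60 (SE 0.40, limma adjusted p = 0.381), with -0.27 to 1.46. These intervals all hold 0. For Mbp, highest in a wild type library, the change was -0.04 (SE 0.61, limma adjusted p = 0.978), with -1.36 to 1.28. Without wild type replicate 3, the changes were 1.42 for Mog, 1.41 for Sox10, 1.02 for Cnp and 0.68 for Mbp. Both 5xFAD EGFP libraries were above all wild type libraries in 3 of 14 genes (Cldn11, Opalin and Cspg4), against 16.5% of all tested genes. With wild type replicate 3 left out, 6 of the 14 passed (Mog, Mag, Cnp, Cldn11, Opalin and Cspg4, all higher), with limma adjusted p from 0.0278 for Cspg4 to 0.0491 for Mag. Over all 10817 genes 969 were higher and 1029 lower in that fit. Neuron markers summed to 36.0, 28.9 and 110.2 FPKM in wild type and 93.8 and 76.5 FPKM in 5xFAD EGFP and were also highest in wild type replicate 3. Their part in the result was not tested.

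Against 5xFAD EGFP, circRNA had 0 of 14 oligodendrocyte genes past the threshold, as for all genes (0% higher and 0% lower). The changes were negative in all but Cspg4, with a median log2 change of -0.57 (all genes 0.08), and 0 of 14 had an unadjusted p under 0.05, against 4.83% of all genes. The median was -0.27 without circRNA replicate 2. With the replicate number as a block it was -0.86, and 5 of 14 had an unadjusted p under 0.05, against 5.77% of all genes. The change of Mog was -0.65 (SE 0.49, limma adjusted p = 0.74), with an interval of -1.71 to 0.40. For Sox10 it was -0.76 (SE 0.48, limma adjusted p = 0.739), with -1.81 to 0.30. Mbp was at -0.40 (SE 0.58, limma adjusted p = 0.814), with -1.65 to 0.85. Each interval is wide and holds 0. In Mog and Sox10, circRNA replicates 1 and 4 were near the 5xFAD EGFP libraries and replicate 2 was far below them. Cnp was at -0.40 (SE 0.38, limma adjusted p = 0.752), with -1.22 to 0.42.

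PKR KO against 5xFAD EGFP also gave 0 of 14 past the threshold, against 0.0832% higher and 0% lower over all genes, but the unadjusted p-values were small. The median log2 change was -1.37 against 0.01 over all genes, and 11 of 14 genes were lower at an unadjusted p under 0.05, against 5.57% of all genes (13% in either direction). The exceptions were Mbp, Mobp and Cspg4. All 4 PKR KO libraries lay below both 5xFAD EGFP libraries in 13 of 14 genes, all but Cspg4, against 17% of all tested genes. The change of Mog was -1.74 (SE 0.49, limma adjusted p = 0.206), with an interval of -2.80 to -0.69. That of Sox10 was -1.53 (SE 0.48, limma adjusted p = 0.227), with -2.59 to -0.48. Cnp was at -1.29 (SE 0.38, limma adjusted p = 0.216), with -2.11 to -0.47. These intervals lie below 0 although the adjusted p missed the threshold. Mbp was at -1.19 (SE 0.58, limma adjusted p = 0.404), with -2.44 to 0.06, and Cspg4 at -0.01, with -0.55 to 0.54. Fitted on these 2 groups alone, 13 of the 14 passed, all lower, with Mog at limma adjusted p = 0.00174. The members varied less in these 2 groups than in wild type and circRNA, and the part of this in the count was not tested. Over all 10817 genes 212 were higher and 365 lower in that fit. Over the 13 alternatives, the limma adjusted p of Mog ranged up to 0.793. The 24 tested of 32 other oligodendrocyte genes had a median of -1.25. Of these, 14 had an unadjusted p under 0.05 and 0 passed the adjusted threshold. Neuron markers were 57.6, 39.0, 47.7 and 63.2 FPKM in PKR KO, below the 93.8 and 76.5 FPKM of 5xFAD EGFP, and their part in the result was not tested.

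Of the 14 oligodendrocyte genes, 1 passed in circRNA against wild type, Cspg4, which was higher at 0.66 (SE 0.22, limma adjusted p = 0.0454), against 17.8% of all genes higher and 8.05% lower. It was also the 1 that passed in PKR KO against wild type, higher at 0.64 (SE 0.22, limma adjusted p = 0.0383), against 17.5% of all genes higher and 19.4% lower. Both comparisons share the same wild type libraries and are not independent. The call held in 7 of 14 alternatives in each comparison, with limma adjusted p up to 0.186 with circRNA and 0.159 in PKR KO. Both calls were lost with no filter on low values (where Pdgfra passed, lower), with libraries rescaled to 1 sum, and without wild type replicate 1 or 2. The call with circRNA was also lost with the compared groups alone and without circRNA replicate 2 or 3. The call in PKR KO was also lost without PKR KO replicate 1, 2 or 3. Without wild type replicate 2 the changes were 0.41 and 0.39. The median change of the 14 genes was 0.18 with circRNA and -0.63 in PKR KO. With wild type replicate 3 left out these medians were 0.65 and -0.16. The median with circRNA was -0.05 without wild type replicate 1, -0.02 without circRNA replicate 1 and -0.05 with libraries rescaled to 1 sum. It was 0.02 without wild type replicate 2 and 0.50 without circRNA replicate 2, so its sign is not settled. Every PKR KO library lay below every wild type library in 2 of 14 genes, Mog and Cnp, against 21.1% of all genes. For circRNA against PKR KO, 0 of 14 passed (4.28% higher and 1.91% lower over all genes) and 5 of 14 were higher at an unadjusted p under 0.05, against 19.6% of all genes. That number was 1 without circRNA replicate 1 and 1 without replicate 4, against 16.4% and 19.1% of all genes. It was 11 without replicate 2 and 10 with the replicate block, against 20.1% and 20% of all genes. All 14 were positive, with a median of 0.82 (all genes 0.08). With circRNA replicate 2 left out, Mog, Mag, Cnp and Opalin passed, all higher in circRNA, with Mog at limma adjusted p = 0.0306. Over all genes 332 were higher and 132 lower in that fit.

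Ratios between members within a library were looked at after the values were seen, and are given as a description with no test. The Mag to Mog ratio lay between 1.56 and 2.45 and the Sox10 to Mog ratio between 0.52 and 0.86 over the 13 libraries. Cnp to Mog ranged more widely, from 3.03 to 5.86. The Mbp to Mobp ratio lay between 1.77 and 2.26, but Mbp to Mog was 54.6, 47.0 and 69.3 in wild type, 25.2 and 27.7 in 5xFAD EGFP, 28.4, 61.9, 19.5 and 38.1 with circRNA and 45.5, 53.3, 33.1 and 64.6 in PKR KO. Both 5xFAD EGFP libraries lay below all wild type and PKR KO libraries in this ratio, and circRNA replicate 3 had the lowest.

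**Figure D2:**
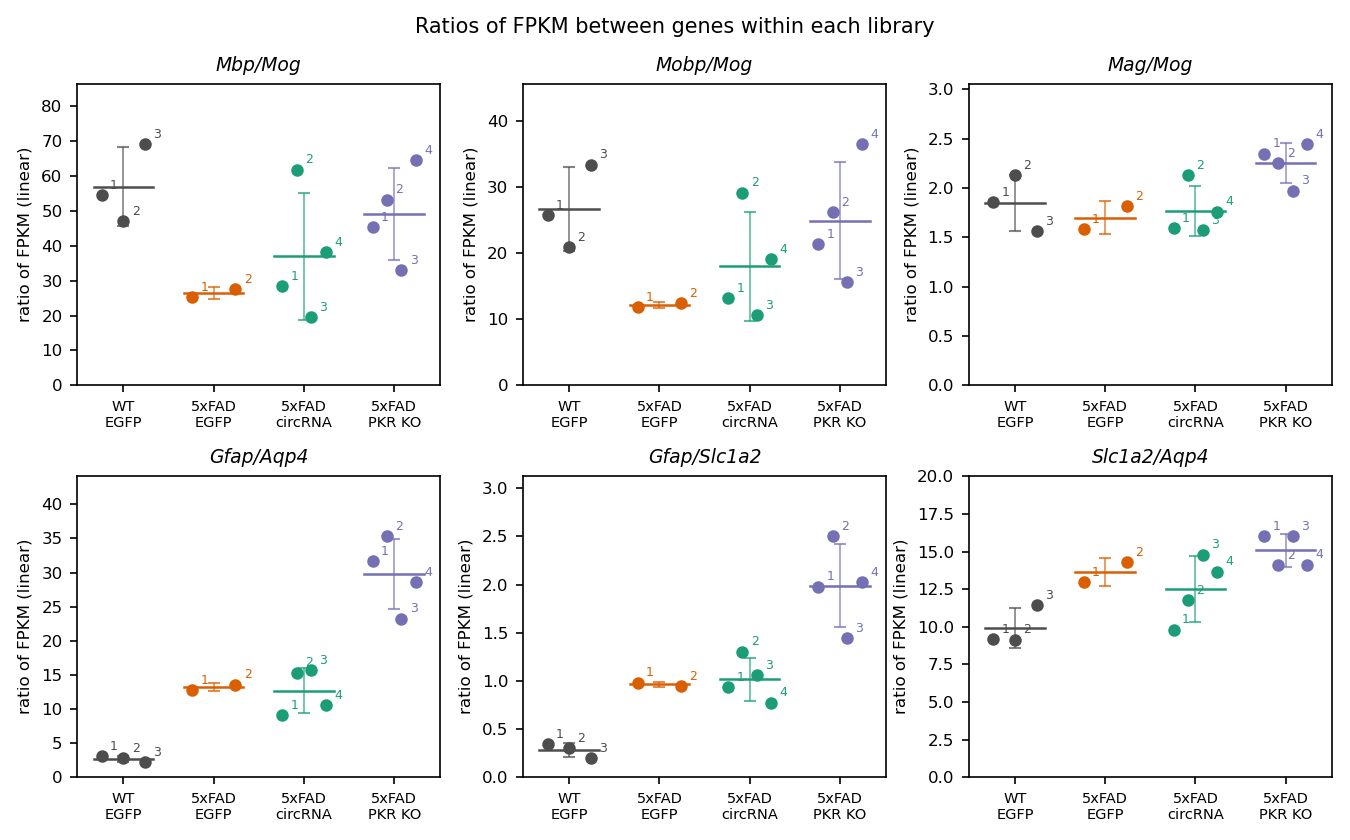
Ratios of FPKM between pairs of genes within a library (linear axis, from 0); points are libraries with their replicate number, lines are group means and bars SD (n = 3, 2, 4 and 4). Mag to Mog stayed between 1.56 and 2.45, while Gfap to Aqp4 was 2.26 to 3.14 in wild type and 23.2 to 35.4 in the PKR KO group.

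Among the astrocyte genes that clear glutamate, Glul had the highest level of the class, with a mean of 207 FPKM over the 13 libraries. Glul, glutamine synthetase, which other brain cells also express, was at 274, 207 and 317 FPKM in wild type, 218 and 173 in 5xFAD EGFP, 217, 167, 205 and 175 with circRNA and 232, 145, 199 and 168 in PKR KO. Slc1a2, the main glutamate transporter of the forebrain, was at 47.6, 38.6 and 152 FPKM in wild type, 76.0 and 53.1 in 5xFAD EGFP, 88.0, 41.8, 84.6 and 64.0 with circRNA and 58.8, 32.5, 45.9 and 49.5 in PKR KO. Wild type replicate 3 was again apart from replicates 1 and 2, and the groups overlapped. Slc1a3, the transporter shared with radial glia, ranged over 17.4 to 41.6 FPKM in wild type, 14.2 to 20.1 in 5xFAD EGFP, 15.1 to 25.2 with circRNA and 12.9 to 19.6 in PKR KO. The cytosolic enzyme Aldh1l1, a general astrocyte marker, was at 2.99, 2.91 and 7.50 FPKM in wild type, 3.64 and 2.38 in 5xFAD EGFP, 4.07, 1.97, 3.94 and 3.22 with circRNA and 3.20, 2.07, 2.43 and 2.54 in PKR KO. Aldoart1, a retrocopy of an aldolase gene, was at 0.03 FPKM or less in every library, 0 to 3.5 fragments, and was not tested.

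The channel, junction and transporter genes of the astrocyte membrane followed. Aqp4, the water channel, was at 5.20, 4.22 and 13.2 FPKM in wild type, 5.85 and 3.71 in 5xFAD EGFP, 8.97, 3.55, 5.71 and 4.69 with circRNA and 3.68, 2.304, 2.86 and 3.50 in PKR KO. Gja1, connexin 43 of astrocyte gap junctions, was at 4.85, 3.43 and 13.7 FPKM in wild type, 4.24 and 2.86 in 5xFAD EGFP, 6.003, 2.02, 4.26 and 4.06 with circRNA and 2.28, 1.16, 1.97 and 2.07 in PKR KO. In both genes every PKR KO library lay below every wild type and 5xFAD EGFP library, and circRNA replicate 2 lay within the PKR KO range. Slc4a4, a bicarbonate transporter, was at 2.57 to 11.2 FPKM in wild type, 2.77 to 4.38 in 5xFAD EGFP, 2.45 to 5.65 with circRNA and 1.70 to 3.31 in PKR KO. Mlc1, a membrane protein of the endfeet, was at 6.97 to 26.9 FPKM in wild type, 6.16 to 10.5 in 5xFAD EGFP, 5.41 to 12.8 with circRNA and 3.85 to 8.62 in PKR KO. The sodium pump subunit Atp1b2 was at 13.7 to 36.8 FPKM in wild type, 12.0 to 18.3 in 5xFAD EGFP, 9.91 to 24.1 with circRNA and 8.36 to 17.3 in PKR KO.

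Among receptors and regulators, Sox9, the transcription factor of astrocyte identity, was at 5.70, 4.56 and 12.6 FPKM in wild type, 4.28 and 2.87 in 5xFAD EGFP, 5.83, 2.44, 4.55 and 5.89 with circRNA and 3.04, 1.505, 1.98 and 2.18 in PKR KO. Both 5xFAD EGFP libraries and all PKR KO libraries lay below every wild type library, while circRNA overlapped wild type. The growth factor receptor Fgfr3 was at 3.46 to 12.5 FPKM in wild type, 2.57 to 4.04 in 5xFAD EGFP, 2.03 to 4.65 with circRNA and 1.53 to 4.00 in PKR KO. The neurotensin receptor Ntsr2 was at 4.48 to 17.4 FPKM in wild type, 4.19 to 6.43 in 5xFAD EGFP, 3.07 to 8.11 with circRNA and 2.11 to 4.76 in PKR KO. S100b, a calcium-binding protein that oligodendrocytes also make, was at 16.5 to 74.6 FPKM in wild type, 28.6 to 32.4 in 5xFAD EGFP, 19.5 to 35.4 with circRNA and 14.5 to 22.2 in PKR KO.

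Of the genes known to rise in reactive astrocytes, Gfap and Serpina3n had other high libraries than the rest of the class. Gfap was at 16.3, 11.6 and 29.9 FPKM in wild type, 74.6 and 50.3 in 5xFAD EGFP, 82.0, 54.4, 89.5 and 49.6 with circRNA and 116, 81.5, 66.5 and 100.1 in PKR KO. Every 5xFAD library was above every wild type library. Serpina3n, a serine protease inhibitor of reactive astrocytes, was at 0.667, 0.234 and 1.16 FPKM in wild type, 5.17 and 4.18 in 5xFAD EGFP, 8.54, 2.48, 7.46 and 4.89 with circRNA and 6.09, 5.00, 4.88 and 6.15 in PKR KO, again with no overlap with wild type. Serpina3n has near-identical neighbours in its gene cluster, and the counting of shared reads is not given. Vim, an intermediate filament protein that microglia and vessel cells also express, was at 17.8, 11.7 and 25.5 FPKM in wild type, 11.8 and 7.17 in 5xFAD EGFP, 11.7, 10.3, 15.4 and 11.7 with circRNA and 14.0, 11.3, 13.45 and 11.2 in PKR KO, so the groups overlapped.

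**Figure D3:**
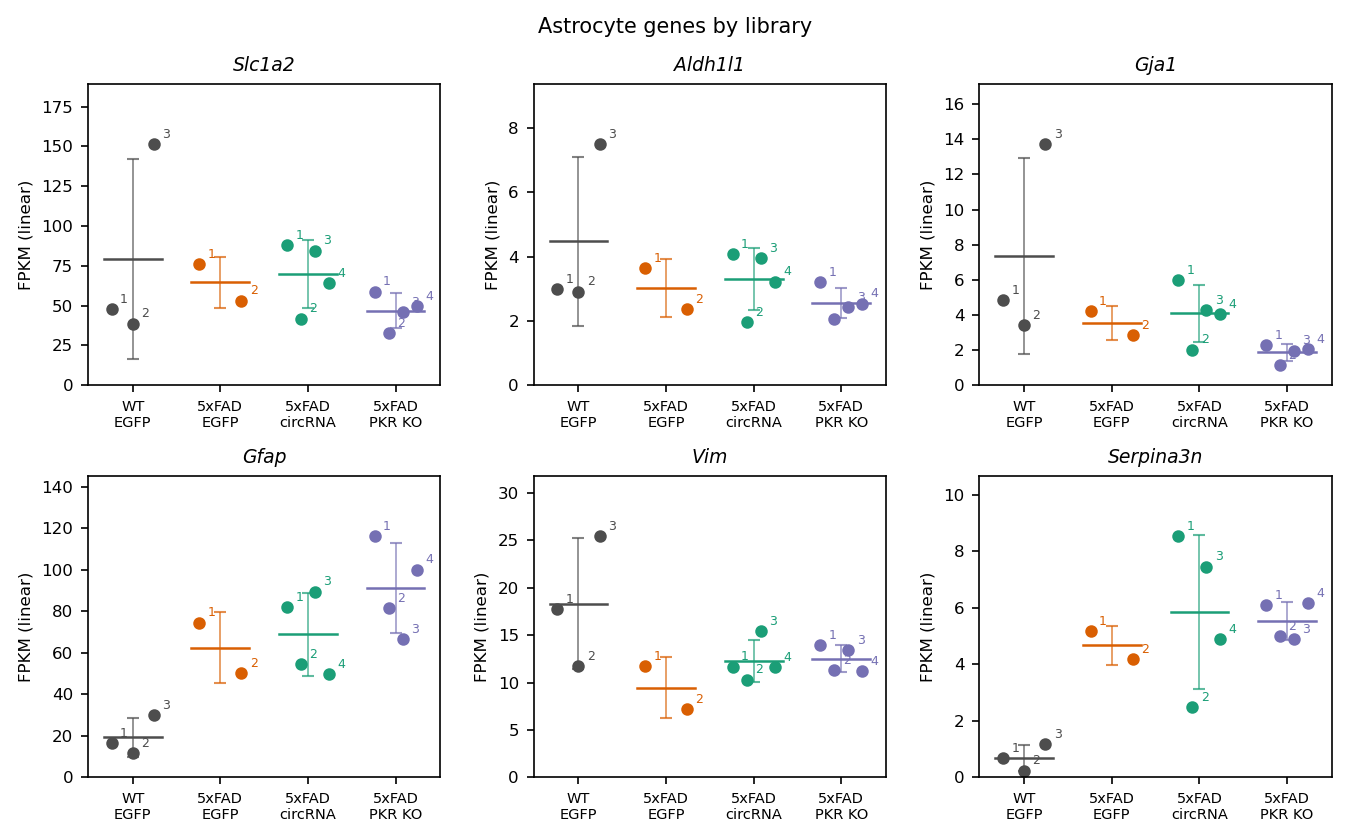
FPKM (linear axis, from 0) of 6 astrocyte genes in each library; points are libraries with their replicate number, lines are group means and bars SD (n = 3, 2, 4 and 4). Gfap and Serpina3n in all 10 libraries of 5xFAD mice are above the 3 wild type libraries, while Slc1a2, Aldh1l1 and Vim overlap between groups.

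In 5xFAD EGFP against wild type, 2 of 16 astrocyte genes passed, both higher: Gfap by 1.72 (SE 0.37, limma adjusted p = 0.00868) on the log2 scale and Serpina3n by 1.78 (SE 0.34, limma adjusted p = 0.00494). Over all genes 7.65% were higher and 6.35% lower. The median over the 16 was -0.46 (all genes -0.03) and 13 of 16 were negative. With wild type replicate 3 left out the median was 0.0009, so the lower median rests on that library. It also moved with others, to -0.74 without wild type replicate 2, and to -0.73 and -0.19 without 5xFAD EGFP replicate 1 and 2. Vim was at -0.86 (SE 0.27, limma adjusted p = 0.0514), with an interval of -1.44 to -0.28, and passed in 4 of 12 alternatives, all lower. Aqp4 was at -0.44 (SE 0.39, limma adjusted p = 0.519), with -1.29 to 0.40. Slc1a3 was at -0.52 (SE 0.32, limma adjusted p = 0.343), with -1.22 to 0.18. Without wild type replicate 3, Aqp4 was at -0.0021 and Slc1a3 at -0.15, so their lower values rest on that library. Both 5xFAD EGFP libraries lay above every wild type library in 2 of 16 genes, Gfap and Serpina3n, a share below the 16.5% of all genes. Without 5xFAD EGFP replicate 1 neither Gfap (limma adjusted p = 0.0985) nor Serpina3n (0.0545) passed, with changes of 1.44 and 1.66. Gfap also missed the threshold with the compared groups alone (limma adjusted p = 0.0647). Endothelial markers were at 125, 70.0 and 163 FPKM in wild type and 44.6 and 31.0 FPKM in 5xFAD EGFP, with 6 of 7 lower past the threshold, and their part in the result was not tested.

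Against 5xFAD EGFP, 0 of 16 astrocyte genes passed limma's adjusted threshold with circRNA and 0 of 16 in PKR KO, and 0 of 16 had an unadjusted p under 0.05 in each. Of all genes, 0% were higher and 0% lower with circRNA, 0.0832% higher and 0% lower in PKR KO, and 4.83% and 13% had an unadjusted p under 0.05. The medians were 0.14 with circRNA and -0.34 in PKR KO. They rest on which 5xFAD EGFP library is used: they were 0.37 and -0.05 without replicate 1, and -0.13 and -0.60 without replicate 2. With circRNA, the log2 change of Gfap was 0.12 (SE 0.35, limma adjusted p = 0.907), with an interval of -0.64 to 0.88. For Serpina3n it was 0.17 (SE 0.33, limma adjusted p = 0.855), with -0.54 to 0.89. Vim was at 0.36 (SE 0.25, limma adjusted p = 0.739), with -0.19 to 0.91. These intervals allow changes in either direction. Aqp4 was at 0.18 (SE 0.37, limma adjusted p = 0.864), with -0.62 to 0.99, and Slc1a3 at 0.25 (SE 0.31, limma adjusted p = 0.791), with -0.41 to 0.92.

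In PKR KO against 5xFAD EGFP, Gfap was at 0.53 (SE 0.35, limma adjusted p = 0.519), with -0.22 to 1.29. Serpina3n was at 0.20 (SE 0.33, limma adjusted p = 0.806), with -0.51 to 0.91. Vim was at 0.39 (SE 0.25, limma adjusted p = 0.512), with -0.16 to 0.95. These 3 were the astrocyte genes with a positive change. Aqp4 was at -0.49 (SE 0.37, limma adjusted p = 0.575), with -1.29 to 0.31. Slc1a3 was at -0.08 (SE 0.31, limma adjusted p = 0.92), with -0.75 to 0.58. In 3 of 16 genes (Aqp4, Gja1 and S100b) every PKR KO library was below both 5xFAD EGFP libraries, against 17% of all genes.

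Against wild type, Gfap and Serpina3n were higher in the circRNA and PKR KO groups as well. The same 3 wild type libraries serve in each comparison with wild type, so these are not independent repeats. With circRNA 2 of 16 genes passed, against 17.8% of all genes higher and 8.05% lower. Gfap rose by 1.84 (SE 0.31, limma adjusted p = 0.000896) and Serpina3n by 1.96 (SE 0.29, limma adjusted p = 0.000364). In PKR KO, 6 of 16 astrocyte genes passed, 2 higher and 4 lower, which is near the share of all genes (17.5% higher and 19.4% lower). The medians of the 16 were -0.30 with circRNA and -0.73 in PKR KO, and 0.0955 and -0.30 with wild type replicate 3 left out. Gfap rose by 2.25 (SE 0.31, limma adjusted p = 0.000159) and Serpina3n by 1.98 (SE 0.29, limma adjusted p = 0.000252). Gja1 was lower, at -1.36 (SE 0.36, limma adjusted p = 0.0123). Sox9 was lower, at -1.35 (SE 0.31, limma adjusted p = 0.00504). Aqp4 was lower, at -0.93 (SE 0.33, limma adjusted p = 0.0408), and so was Glul, at -0.51 (SE 0.19, limma adjusted p = 0.0497). Gfap, Serpina3n, Sox9 and Gja1 passed in all 14 alternatives, Gja1 at -0.84 (limma adjusted p = 0.0334) without wild type replicate 3, while Aqp4 and Glul passed in 5 of 14 each. Aqp4 failed without wild type replicate 3 (-0.49, limma adjusted p = 0.163) and without any 1 PKR KO library. Glul failed without wild type replicate 1 or 3 or PKR KO replicate 2, 3 or 4 (0.155 without wild type replicate 3). With wild type replicate 2 left out, 14 of 16 passed, all lower but Gfap and Serpina3n, with 1686 of all 10817 genes higher and 2160 lower. With the replicate block more than 6 of 16 passed too, as counted under the processing settings below. Over all 10817 genes 1819 were higher and 2051 lower with the block. The ependyma and choroid plexus markers were lower too, 3 of 3 past the threshold, and their part in the result was not tested. In circRNA against PKR KO 0 of 16 passed, against 4.28% of all genes higher and 1.91% lower, with a median of 0.48. Sox9, Aqp4 and Gja1, 3 of 16, were higher with circRNA at an unadjusted limma p under 0.05, which is near the 19.6% of all genes, and Gfap was at -0.41 (interval -1.03 to 0.21).

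**Figure D4:**
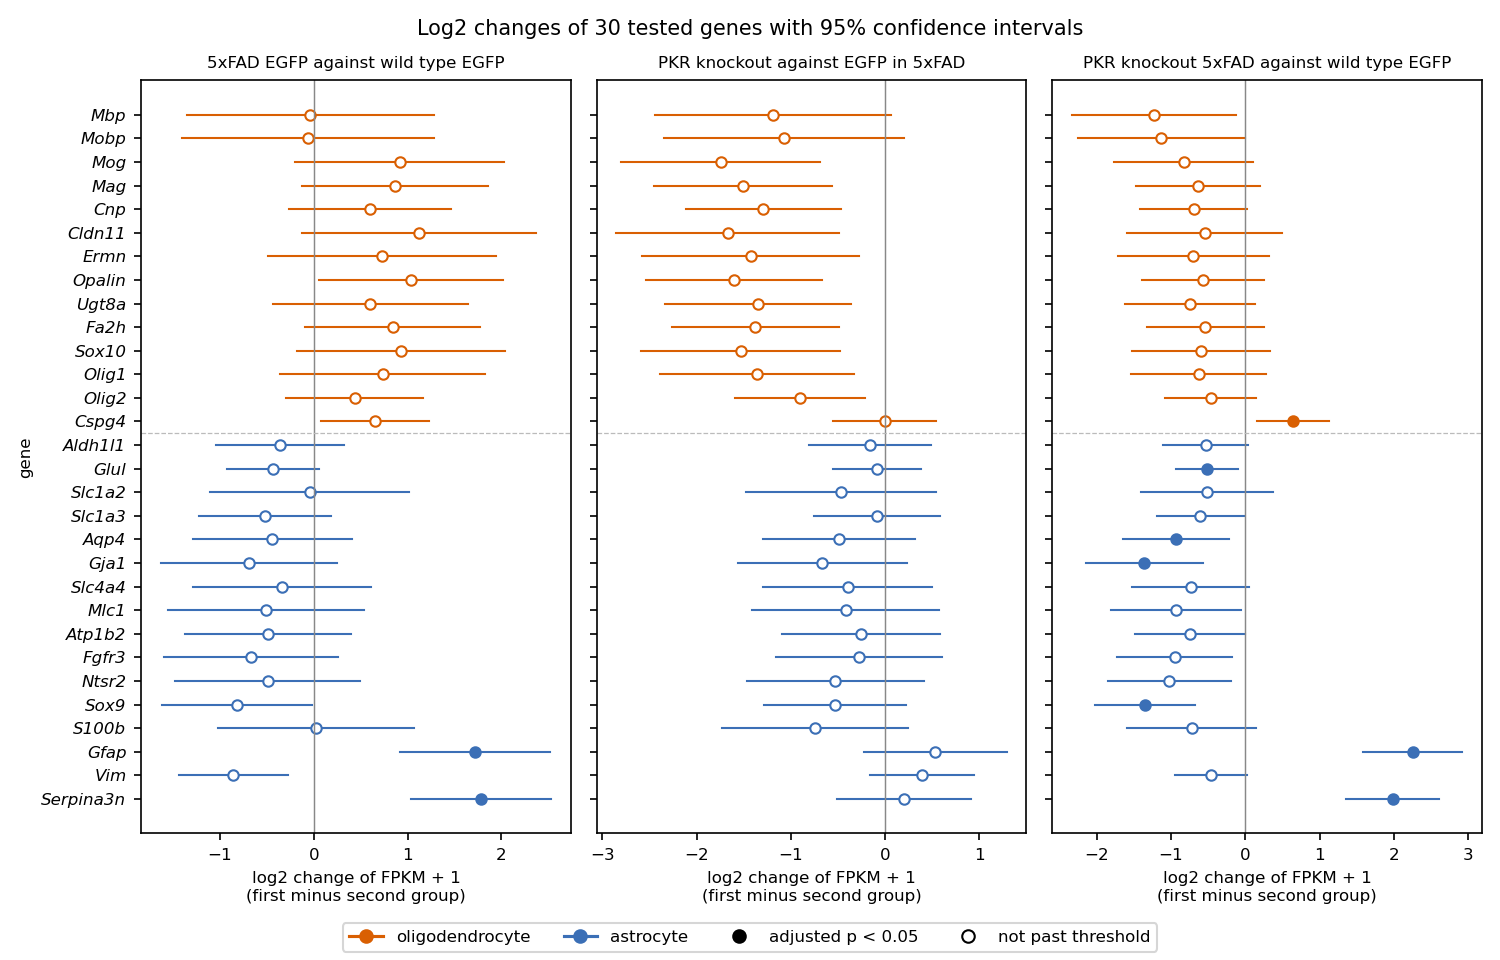
Log2 change of FPKM + 1 with its 95% confidence interval for the 30 tested genes in 3 comparisons, oligodendrocyte genes above the dashed line and astrocyte genes below it; filled points passed an adjusted p of 0.05. In the middle panel 13 of 14 oligodendrocyte genes lie left of 0, Cspg4 lies at 0, and none is filled, and Gfap and Serpina3n are filled and right of 0 in the outer panels.

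Ratios of Gfap to Aqp4, Slc1a2 and Aldh1l1, also looked at after the values were seen, were lowest in wild type, with 5xFAD EGFP inside the circRNA range. The ratios to Aqp4 and Slc1a2 were highest in PKR KO, while for Aldh1l1 the PKR KO and circRNA ranges overlapped. Gfap to Aqp4 was 3.14, 2.75 and 2.26 in wild type, 12.7 and 13.6 in 5xFAD EGFP, 9.15, 15.3, 15.7 and 10.6 with circRNA and 31.7, 35.4, 23.2 and 28.6 in PKR KO. Gfap to Slc1a2 was 0.343, 0.301 and 0.197 in wild type, 0.982 and 0.948 in 5xFAD EGFP, 0.932, 1.30, 1.06 and 0.774 with circRNA and 1.98, 2.51, 1.45 and 2.02 in PKR KO. Gfap to Aldh1l1 was 3.99 to 5.47 in wild type, 20.5 to 21.2 in 5xFAD EGFP, 15.4 to 27.7 with circRNA and 27.4 to 39.5 in PKR KO. Sox9 to Aldh1l1 was 1.56 to 1.91 in wild type, 1.18 to 1.21 in 5xFAD EGFP, 1.16 to 1.83 with circRNA and 0.728 to 0.952 in PKR KO. Slc1a2 to Aqp4 lay between 9.15 and 16.1 in all libraries. No test was made of these ratios.

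Other genes of both classes, from lists that were also written with earlier results of these data known, were counted beside the members. Of 27 tested of 32 other astrocyte genes, 1 passed in 5xFAD EGFP against wild type, against 7.65% of all genes higher and 6.35% lower. It was the zinc transporter gene Slc39a12, lower at -1.04 (SE 0.25, limma adjusted p = 0.0171). In PKR KO against wild type 5 passed, all lower, which is near the 19.4% of all genes that were lower there. The summed level of these 32 genes was 891 FPKM in wild type replicate 3, against 388 and 298 FPKM in wild type replicates 1 and 2. Slc39a12 was at -1.45 (SE 0.21, limma adjusted p = 0.000258). Slc7a10, an amino acid exchanger, was at -1.60 (SE 0.28, limma adjusted p = 0.00102). Mt3, a metallothionein, was at -1.34 (SE 0.37, limma adjusted p = 0.0146), and at -0.95 (limma adjusted p = 0.0564) without wild type replicate 3. Slc39a12 was at 10.0, 7.68 and 12.0 FPKM in wild type replicates 1 to 3. Among the 5xFAD libraries, Slc7a10 and Ttr were both highest in circRNA replicate 4 (5.33 and 2212 FPKM). Both were lowest in PKR KO replicate 4 (0.85 and 202 FPKM). The part of choroid plexus RNA in these changes was not tested.

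Of 5 tested of 12 other reactive astrocyte genes, 3 were higher and 1 lower past the threshold in each of the 3 comparisons of 5xFAD with wild type. These comparisons share the same wild type libraries. Of all genes, 7.65% were higher and 6.35% lower in 5xFAD EGFP, 17.8% and 8.05% with circRNA, and 17.5% and 19.4% in PKR KO. In 5xFAD EGFP the complement gene C4b rose by 0.89 (SE 0.26, limma adjusted p = 0.0379) and the chemokine gene Cxcl10 by 1.00 (SE 0.22, limma adjusted p = 0.00896). Ceruloplasmin, Cp, was lower, at -0.85 (SE 0.20, limma adjusted p = 0.0149). Cxcl10 and the third higher gene, Cd44, are known in microglia and other immune cells too.

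Of 24 tested of 32 other oligodendrocyte genes, 1 passed in 5xFAD EGFP against wild type, against 7.65% of all genes higher and 6.35% lower. It was Evi2a, higher at 0.71 (SE 0.15, limma adjusted p = 0.00943). It was also higher with circRNA, at 0.92 (SE 0.13, limma adjusted p = 0.000247), and in PKR KO, at 0.52 (SE 0.13, limma adjusted p = 0.00771). Trf, the transferrin gene, was higher with circRNA, at 0.54 (SE 0.14, limma adjusted p = 0.015), and in PKR KO, at 0.57 (SE 0.14, limma adjusted p = 0.00868). Evi2a and Trf were the 2 that passed with circRNA, against 17.8% of all genes higher and 8.05% lower. Neither was highest in wild type replicate 3, the highest wild type library for all 14 tested members. In wild type replicates 1 to 3, Evi2a was at 21.2, 23.0 and 21.8 FPKM and Trf at 213, 225 and 168 FPKM. Enpp2, which encodes the phospholipase autotaxin and is also expressed in choroid plexus, was lower in PKR KO, at -1.94 (SE 0.51, limma adjusted p = 0.0119). Ppp1r14a and Apod were the other 2 that were lower there, so that 2 were higher and 3 lower of 24, against 17.5% and 19.4% of all genes. The sums of choroid plexus and ependyma markers given above were lower in PKR KO than in wild type without overlap, and their part in the result was not tested.

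The spread within groups was wide. The highest over the lowest library, as a median over genes, was 3.28 times for oligodendrocyte genes in wild type, 1.13 in 5xFAD EGFP, 3.75 with circRNA and 1.995 in PKR KO, against 1.295, 1.098, 1.272 and 1.211 over all tested genes. For astrocyte genes it was 3.37, 1.51, 2.297 and 1.78, and for the 14 microglial markers 1.62, 1.06, 1.48 and 1.19. In 5xFAD EGFP the astrocyte genes were higher in replicate 1 in 16 of 16 and the oligodendrocyte genes in 4 of 14, against 75.7% of all tested genes.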

How the data were processed

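Total RNA labelled as microglia was sequenced in 13 libraries. Per the labels' protocols, TRIzol extraction was followed by rRNA depletion and a stranded library kit. The submitters' processing notes name Bowtie2 2.3.5, HISAT2 2.1.0, featureCounts 1.5.1 and mm10; their roles, the annotation and the strand setting of counting are not given in the sources used here, so reads of a gene and a partner on the opposite strand might be pooled. Exons of 9 of the 32 genes overlap another gene's (for example Cnp with Dnajc7 and Slc1a2 with an antisense transcript). The authors deposited 1 table of FPKM values for each gene and library, not pooled. The sums of FPKM were 123352 to 170775 for each library.

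Low values were multiples of 1 fragment over union exon lengths of GENCODE M21 (GRCm38), which gave depth: of 24747 values under 12 fragments, 91.7% were whole within 0.02, and 19394 genes had a length. On log2(FPKM + 1), limma 3.58.1 (R 4.3.3) fitted a mean for each group over all 13 libraries, with eBayes and a trend. It tested the 10817 genes that averaged 1 FPKM or more, with Benjamini-Hochberg adjustment within each of 6 comparisons and a threshold of 0.05. Log2 changes on this scale understate the change of low genes. The code was tested on simulated data. Sequences came from RefSeq (GRCm38.p6).

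The genes and lists were chosen with earlier results of these data known. All members are named with their values; a log2 change is given for each that passed and for a panel of 9 (Mbp, Mog, Cnp, Sox10, Aqp4, Slc1a3, Gfap, Vim and Serpina3n) in the first 3 comparisons, and at most 3 passing genes of other lists. Alternatives were another pseudocount (0.1), no filter, rescaling to 1 sum, median-ratio scaling, the compared groups alone, arrayWeights, the replicate block and leaving out each library.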

Additional observations from a re-analysis of the deposited data

Results flagged for a closer look

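In groups of 4, a library was marked when its gap to the nearest other, divided by the group's range, passed Dixon's critical value. Chance marks about 1 in 20 groups. Of 66 groups checked 3 were marked, or 4.5%. Mobp was highest in PKR KO replicate 4, at 112.49 FPKM, with a gap of 0.85 of the range. Mag was lowest in PKR KO replicate 2, at 5.328 FPKM, with a gap of 0.905. Cldn11 was also lowest in PKR KO replicate 2, at 5.364 FPKM, with a gap of 0.908. These are values of single libraries and no cause was tested.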

How the results depend on the processing

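Counts are oligodendrocyte then astrocyte genes past the threshold, and the cause of each change was not tested. In 5xFAD EGFP against wild type (0 and 2), no filter gave 1 oligodendrocyte gene (Pdgfra, lower), rescaling to 1 sum 4 astrocyte genes, the compared groups alone 1 astrocyte gene (Serpina3n, without Gfap) and arrayWeights 2 oligodendrocyte genes. Leaving out 1 library gave 0 to 6 (6 without wild type replicate 3) and 0 to 3 (0 without 5xFAD EGFP replicate 1, 3 without wild type replicate 2). In PKR KO against 5xFAD EGFP (0 and 0), the compared groups alone gave 13 and 1, and arrayWeights 12 oligodendrocyte genes. In circRNA against wild type (1 and 2), rescaling gave 0 and 5, the compared groups alone 0 and arrayWeights 2 oligodendrocyte genes. Leaving out 1 library gave 0 to 1 and 2 to 4 (4 without wild type replicate 2). In PKR KO against wild type (1 and 6), rescaling gave 3 and 14, and leaving out 1 library 0 to 2 and 4 to 14 (14 without wild type replicate 2). In circRNA against PKR KO (0 and 0), arrayWeights gave 13 and 6, and leaving out 1 library 0 to 4 oligodendrocyte genes (4 without circRNA replicate 2). In circRNA against EGFP, 0 and 0 held under every alternative run.

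With the replicate block, PKR KO against wild type gave 3 and 12, circRNA against wild type 4 astrocyte genes, and the Mbp change in 5xFAD EGFP against wild type was 0.095 in place of -0.04. Over all 10817 genes the block gave 1819 higher and 2051 lower in PKR KO against wild type, and 1781 and 897 with circRNA. Other counts of members past the adjusted threshold stayed within 1.5 times. Oligodendrocyte genes with an unadjusted p under 0.05 went from 2 to 8 in 5xFAD EGFP and 3 to 6 in PKR KO against wild type (25.3% and 46.1% of all genes with the block), 0 to 5 with circRNA and 11 to 13 in PKR KO against EGFP (5.77% and 16.9%), and 5 to 10 in circRNA against PKR KO (25.6%). Same-numbered libraries did not deviate together in every pair (r from -0.422 to 0.69), and 4 of 4 libraries in PKR KO against 5xFAD EGFP correlated best with their own number, a hint from the data and not the design.

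Over all genes, 5xFAD EGFP against wild type had 827 higher and 687 lower, 708 and 3001 after rescaling and 1099 and 642 after median-ratio scaling, 509 in all with the compared groups alone, and 566 to 1998 leaving out 1 library. PKR KO against 5xFAD EGFP had 9 in all, 0 with pseudocount 0.1, no filter or rescaling, 46 with median-ratio scaling, 577 with the compared groups alone, 822 with arrayWeights, 22 with the replicate block and 0 to 2 leaving out 1 library. Against wild type, circRNA had 1925 higher and 871 lower, 995 and 4681 after rescaling, and 1725 in all with the compared groups alone. PKR KO had 1898 and 2099, 1174 and 5421 after rescaling and 2757 and 1447 after median-ratio scaling. Rescaling moved the median of all genes from -0.03 to -0.17, 0.02 to -0.20 and -0.05 to -0.24 in 5xFAD EGFP, circRNA and PKR KO. In circRNA against PKR KO, 463 were higher and 207 lower, 148 and 697 after median-ratio scaling, 339 and 344 after rescaling, 3161 in all with arrayWeights, and 147 to 506 leaving out 1 library.

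Of the 37 log2 changes followed through the alternatives (9 genes in 3 comparisons, and the genes past the threshold), 5 uncalled changes changed sign in some alternative. The other members were followed only without wild type replicate 3, where Mobp, Slc1a2, Mlc1, Ntsr2, Slc4a4 and Aldh1l1 changed sign from negative to positive in 5xFAD EGFP against wild type. In circRNA against wild type, Mbp, Mobp, S100b, Slc1a3, Atp1b2, Mlc1, Ntsr2, Aqp4, Slc4a4 and Aldh1l1 changed sign in this way. In PKR KO against wild type, Slc1a2 did, from -0.51 to 0.09. Mbp in 5xFAD EGFP against wild type was 0.027 with median-ratio scaling and 0.50 with arrayWeights, and -0.44 to 0.68 leaving out 1 library (0.68 without wild type replicate 3). In circRNA against EGFP, leaving out 1 library gave -0.087 to 0.45 for Aqp4, -0.16 to 0.40 for Gfap and -0.019 to 0.47 for Serpina3n. Slc1a3 in PKR KO against EGFP ranged from -0.32 to 0.15.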
